A study of Mus musculus with 6 samples.

Results

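The genes of fatty acid beta oxidation, the peroxisome and the citric acid cycle were followed on 6 arrays of mouse RNA labelled as aorta. They are 33 listed genes for the import of fatty acids into mitochondria, their stepwise oxidation, peroxisomal oxidation and the cycle that burns the products. Of these, 31 were found through a probe set that the array's annotation ties to that gene alone, and the probe set of highest mean signal over the 6 arrays stands for each gene. Cpt1b is listed only by 1 probe set that carries a further symbol, so it has no value here, and Acsl1 is named only. All 31 passed the filter on low signals, also when the mean was taken without the array titled Wildtype 1, and they stand among 13073 probe sets, of 11881 genes, that were tested.

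Per the labels, 3 arrays held aorta RNA of Trail knockout mice and 3 held that of wild-type mice. The age is given as 6 weeks and the strain field reads C57Bl6/J for every sample. The knockout (Trail-/-) came from Amgen. The labels do not say how the allele was made, whether animals were pooled, or how the vessel was trimmed of surrounding tissue. The comparison asks what loss of Trail, the cytokine encoded by Tnfsf10 that can trigger cell death, does to gene expression in the aorta.

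Fatty acids are activated to acyl-CoA esters, handed to carnitine to cross the inner mitochondrial membrane, and shortened step by step by dehydrogenases, hydratases and thiolases. The electrons pass through the electron transfer flavoprotein to the respiratory chain, and the acetyl-CoA enters the citric acid cycle. Peroxisomes shorten very long and dicarboxylic chains first. The pathway is dense in brown fat, heart and red muscle, and brown fat surrounds the thoracic aorta in mice, while smooth muscle of the vessel wall carries less of it.

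The arrays did not all look alike. Across tested probe sets, which are not independent replicates, the Pearson correlation of the array labelled Wildtype 1 with the others was 0.652 to 0.688, and among the other 5 it was 0.927 to 0.992. Tnfsf10, the deleted gene, had log2 signals of 5.02, 4.48 and 4.09 on the arrays labelled knockout 1, 2 and 3, against 8.42, 4.90 and 4.85 on those labelled Wildtype 1, 2 and 3. Wildtype 2 and 3 were thus close to knockout 1 in this gene, and its signal does not bear out those labels. All arrays but Wildtype 1 lay below 5.90, the mean signal under which probe sets were left out of the test. Signals this low cannot tell a deleted gene from a barely expressed one, so they do not settle the labels either way. The labels do not place the probe set inside or outside the deleted part. Directions are given by label. The 12 vascular smooth muscle markers had medians of 9.38 on Wildtype 1 and 9.77 to 10.51 on the others, and Acta2 lay at 12.27 to 12.63 on all arrays. On Wildtype 1, 2 of the 12 were over 2-fold below every other array (Des, 7.86 against at least 11.18, and Actg2, 8.03 against at least 10.67) and 1 was over 2-fold above (Itga8, 11.14 against at most 7.90), all 3 named after their values were seen. Skeletal muscle markers had a median of 5.76 on Wildtype 1, against 10.62 to 11.44 on the others. Those of stratified squamous epithelium had 5.20 on Wildtype 1, against 10.98 to 11.32 on the others. Markers of tissues other than the vessel wall were thus high on the other 5 arrays. Leaving out Wildtype 1 therefore does not leave a set of arrays shown to be aorta alone. Stomach markers stood at 12.11 on knockout 2, against 4.81 to 6.63 elsewhere, and lung markers at 7.11 on knockout 1, against 5.08 to 5.40 elsewhere. Every result is therefore given with Wildtype 1 and without it, and beside the values of knockout 2 where they differ.

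No oxidation gene passed the test between knockout and wild type. With all 6 arrays, 30 of 31 genes had a lower mean in the knockout and 1, Cpt1a, a higher one, with a median difference (knockout minus wild type) of -0.67 on the log2 scale. On the array labelled Wildtype 1, 28 of the 31 genes were over 2-fold above every other array, against 6.38% of all tested probe sets. Without it, 12 genes had a lower and 19 a higher knockout mean, and the median difference was 0.026. In tissue RNA, more cells of an oxidative type and more RNA of these genes per cell cannot be told apart.

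In the test, limma with its intensity trend, adjusted by Benjamini-Hochberg over all tested probe sets, called 0 of 31 genes at an adjusted p under 0.05, and 0 of 13073 probe sets, a background of 0%. The limma adjusted p of the 31 genes was 0.911 to 0.932. An unadjusted p under 0.05 was reached by 0 of the 31 genes and by 83 of all probe sets (13 higher, 0.0994%, and 70 lower, 0.535%). Knockout means were lower for 57.2% of all tested probe sets, whose median difference was -0.036. A difference below -0.5 was seen for 22 of the 31 genes and for 4.52% of all tested. Without Wildtype 1, 0 of 31 genes passed and 0% of all tested did, and an unadjusted p under 0.05 was again reached by 0 of the 31 (186 of all, of which 43 higher, 0.329%, and 143 lower, 1.09%). Knockout means were then lower for 57.6% of all tested probe sets, with a median of -0.026. The labels call the samples of a group separate without saying how they relate, so p-values reflect the spread among these arrays, which may be technical.

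**Figure D1:**
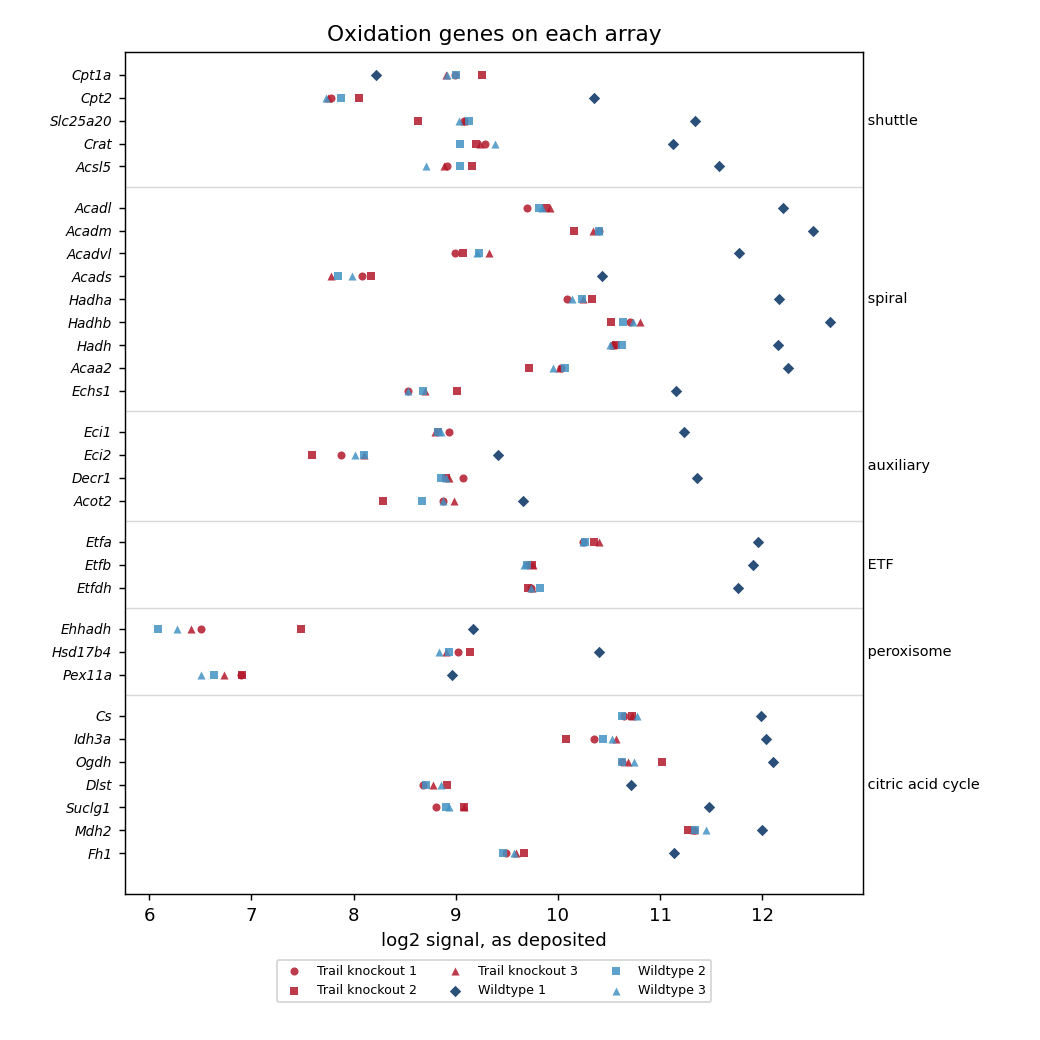
Log2 signal (x axis) of the 31 oxidation genes (rows, grouped by role, ETF being the electron transfer flavoprotein) on each of the 6 arrays. The dark diamond of Wildtype 1 lies to the right of all other arrays for 30 genes, and to their left for Cpt1a.

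Over the 31 genes, Wildtype 1 was above every other array for 30, against 38.9% of all tested probe sets. It was over 4-fold above for 14, against 1.54%, and over 2-fold below for 0, against 7.76%. These are counts of a single array, with no replicate. The gap between Wildtype 1 and the mean of the other 5 arrays had a median of 2.02, or 4.04-fold. For 29 of the genes Wildtype 1 stood above the highest other array by more than the whole range of the other 5. The gap to the mean of the other 5 over all tested probe sets had a median of 0.046.

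Carriers and activating enzymes showed the widest contrast among themselves. Cpt1a encodes the liver-type carnitine palmitoyltransferase that controls entry of long chains into mitochondria. It gave 8.996, 9.25 and 8.90 on the 3 knockout arrays, against 8.22, 9.01 and 8.91 on Wildtype 1, 2 and 3. It was the single member lowest on Wildtype 1, where 30.8% of all tested probe sets were lowest, and its 2 groups overlapped. Its difference, knockout minus wild type, was 0.34 (SE 0.25) on 6 arrays and 0.09 (SE 0.14) without Wildtype 1. Cpt2, the carnitine palmitoyltransferase of the inner membrane, ran the other way. Its signals were 7.78, 8.05 and 7.75 on the knockout arrays, against 10.35, 7.88 and 7.73 on the wild-type arrays. The knockout mean of 7.86 ± 0.17 (SD, n = 3) thus stood against 8.65 ± 1.47 (SD, n = 3) in wild type, or 7.80 without Wildtype 1.

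The translocase gene Slc25a20, which swaps acylcarnitine for carnitine across the inner membrane, gave 9.08, 8.63 and 9.08 on the knockout arrays and 11.34, 9.13 and 9.03 on the wild-type arrays. Acsl5, a long-chain acyl-CoA synthetase, gave 8.91, 9.16 and 8.89 on the knockout arrays and 11.58, 9.05 and 8.71 on the wild-type arrays. Its level on Wildtype 1 was 6.22-fold the mean of the other 5, the largest such ratio among the 31 genes. Crat, which moves acetyl groups on to carnitine, was 3.73-fold above that mean. Of these 5 genes, 4 had a lower knockout mean on 6 arrays, with differences of -0.61 to -0.90, and without Wildtype 1 the 5 differences lay between -0.15 and 0.11.

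The 9 enzymes of the mitochondrial spiral moved as a block on Wildtype 1. All 9 were over 2-fold above every other array there, by a median of 4.92-fold over the mean of the other 5. The acyl-CoA dehydrogenases take the first step, each for its own chain length. Acadvl, for very long chains, gave 8.99, 9.07 and 9.32 on the knockout arrays and 11.77, 9.23 and 9.21 on the wild-type arrays. Acadm, for medium chains, gave 10.40, 10.15 and 10.34 on the knockout arrays and 12.49, 10.40 and 10.40 on the wild-type arrays. Acadl, for long chains, and Acads, for short chains, were on Wildtype 1 5.17-fold and 5.48-fold above the mean of the other 5. The 4 dehydrogenase genes thus showed ratios of 4.45 to 6.10, and their groups overlapped in every case.

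On 6 arrays the knockout mean of Acadvl was 9.13 ± 0.18 (SD, n = 3), against 10.07 ± 1.47 (SD, n = 3) in wild type. The difference of -0.94 (SE 0.72, 95% limma interval -2.72 to 0.84) was the largest among the 31 genes. Without Wildtype 1 it was -0.09 (SE 0.13, interval -0.41 to 0.23). For Acadm the corresponding values were -0.80 (SE 0.59) and -0.10 (SE 0.11).

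Hadha and Hadhb encode the alpha and beta subunits of the mitochondrial trifunctional protein, which carries out the later steps for long chains. Hadha gave 10.09, 10.33 and 10.25 on the knockout arrays and 12.16, 10.24 and 10.14 on the wild-type arrays. Hadhb gave 10.71, 10.52 and 10.80 on the knockout arrays and 12.66, 10.64 and 10.74 on the wild-type arrays. Their ratios on Wildtype 1, 3.88 and 3.94 over the mean of the other 5, were close, while knockout 2 was the highest of the other 5 for Hadha and the lowest for Hadhb. A second probe set of Hadhb gave 10.59, 10.40 and 10.69 on the knockout arrays and 12.64, 10.53 and 10.63 on the wild-type arrays, the same order of arrays. Both subunit genes overlapped between genotypes, with differences of 0.035 and -0.012 without Wildtype 1.

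The 2 subunit genes lie head to head. In the RefSeq promoter windows of the assembly GRCm38.p6, which run from 250 bases before to 50 bases after a gene start, theirs share 228 bases on opposite strands, with the starts 273 bases apart. The Hadhb window, at chr5:30155003-30155302 on the plus strand, is shown because it is the one overlap of windows among the members, and its capitals mark the bases that also lie in the Hadha window:
Hadhb: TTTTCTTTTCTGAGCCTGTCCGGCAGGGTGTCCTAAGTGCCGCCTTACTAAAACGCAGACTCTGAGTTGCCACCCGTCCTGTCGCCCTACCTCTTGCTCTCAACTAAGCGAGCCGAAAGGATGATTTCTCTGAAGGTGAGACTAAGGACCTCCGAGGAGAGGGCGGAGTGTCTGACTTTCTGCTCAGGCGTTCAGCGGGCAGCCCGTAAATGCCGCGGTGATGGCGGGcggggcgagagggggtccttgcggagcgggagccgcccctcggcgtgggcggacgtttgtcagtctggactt
Windows were found for 27 of the 33 listed genes, 26 of them among those measured. Their median GC content was 60.3% (range 50.7 to 70.3%), against 52.8% over 27025 genes, and they held a median of 17 CpG dinucleotides, against 7.

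Promoters of this pathway are known targets of nuclear receptors that read the hexamer AGGTCA. Searched on both strands, it was present in the windows of 6 of 27 members (22.2%: Acadm, Acadvl, Cpt1a, Echs1, Fh1 and Ogdh), and in 18.1% of all 27025 genes. A direct repeat of the hexamer with a spacer of 1 base, the element of peroxisome proliferator-activated receptors, was in 0 of 27 and in 0.0481% of all. The hexamer preceded by TCA, as TCAAGGTCA, the element of estrogen-related receptors, was in 0 of 27 and in 0.466% of all. It contains the hexamer, so any match counts under both. The windows of Acadm (chr3:153944594-153944893, minus strand) and Cpt1a (chr19:3323051-3323350, plus strand) are shown as members with opposite order on Wildtype 1. Capitals mark the hexamer, which reads TGACCT where it lies on the other strand:
Acadm: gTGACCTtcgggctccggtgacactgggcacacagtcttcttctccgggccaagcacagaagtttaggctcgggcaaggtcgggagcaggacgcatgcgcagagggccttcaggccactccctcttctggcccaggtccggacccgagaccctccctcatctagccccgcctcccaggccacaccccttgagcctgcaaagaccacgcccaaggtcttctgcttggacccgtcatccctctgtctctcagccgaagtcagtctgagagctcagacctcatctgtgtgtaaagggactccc
Cpt1a: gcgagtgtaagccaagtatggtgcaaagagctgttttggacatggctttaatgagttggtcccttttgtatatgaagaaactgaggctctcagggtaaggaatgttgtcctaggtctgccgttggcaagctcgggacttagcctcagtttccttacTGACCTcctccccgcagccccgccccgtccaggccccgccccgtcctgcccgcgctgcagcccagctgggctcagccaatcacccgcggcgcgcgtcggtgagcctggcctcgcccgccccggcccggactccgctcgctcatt
Each holds the hexamer in that reversed orientation, 243 bases before the start in Acadm and 88 bases before it in Cpt1a. A match is a stretch of letters, and the absence of one says only that these letters are not in this window.

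The remaining spiral enzymes followed. Acaa2, the thiolase that releases acetyl-CoA, gave 10.03, 9.72 and 10.01 on the knockout arrays and 12.26, 10.07 and 9.95 on the wild-type arrays. Echs1, the short-chain enoyl-CoA hydratase, gave 8.53, 9.01 and 8.70 on the knockout arrays and 11.16, 8.68 and 8.53 on the wild-type arrays. Hadh, a hydroxyacyl-CoA dehydrogenase, was steady elsewhere, with a range of 0.12 over the 5 arrays other than Wildtype 1, and 3.03-fold above their mean on it. Over the 9 spiral genes the knockout mean was lower on 6 arrays, with differences of -0.55 to -0.94, and those without Wildtype 1 ran from -0.10 to 0.14, with 5 of 9 below 0.

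Auxiliary enzymes handle double bonds and release free acids. Eci1, the enoyl-CoA isomerase of mitochondria, and Decr1, the dienoyl-CoA reductase, reached 5.24-fold and 5.38-fold the mean of the other 5 on Wildtype 1. Eci2, the other isomerase, gave 7.88, 7.60 and 8.10 on the knockout arrays and 9.41, 8.10 and 8.02 on the wild-type arrays. Without Wildtype 1 its difference was -0.20 (SE 0.16, interval -0.59 to 0.19), the most negative of the 31 genes, and its lowest value lay on knockout 2.

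Acot2, a mitochondrial acyl-CoA thioesterase, gave 8.87, 8.29 and 8.98 on the knockout arrays and 9.66, 8.67 and 8.87 on the wild-type arrays. It was above all others on Wildtype 1 by less than 2-fold. Acot2 has close copies beside it in the genome, and how its probe set shares signal with them is not known. One of them, Acot1, named after its values were seen, gave 7.22, 7.09 and 7.51 on the knockout arrays and 5.95, 7.44 and 7.10 on the wild-type arrays, so it was lowest where Acot2 was highest.

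The electron transfer flavoprotein takes the electrons of the acyl-CoA dehydrogenases. Its subunit genes Etfa and Etfb, and Etfdh, which passes the electrons on to ubiquinone, reached 3.14-fold, 4.58-fold and 4.04-fold the mean of the other 5 on Wildtype 1. Etfb gave 9.70, 9.74 and 9.76 on the knockout arrays and 11.91, 9.69 and 9.67 on the wild-type arrays. Over the 5 arrays other than Wildtype 1 their ranges were 0.16 for Etfa, 0.091 for Etfb and 0.12 for Etfdh, and that of Etfb was the lowest of the 31 genes. The median range was 0.31 for the 31 genes and 0.36 for all tested probe sets.

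Of the 3 peroxisomal genes, Ehhadh and Pex11a did not overlap between genotypes once Wildtype 1 was left out, although none passed the test. Of all tested probe sets, 4.25% were then higher on every knockout array and 8.45% lower. Ehhadh, the bifunctional enzyme of the peroxisomal pathway, gave 6.51, 7.49 and 6.41 on the knockout arrays, against 9.17, 6.09 and 6.27 on the wild-type arrays. Its difference was -0.37 (SE 0.88) on 6 arrays and 0.62 (SE 0.32, interval -0.15 to 1.39, limma adjusted p = 0.997) without Wildtype 1, and all 3 knockout arrays were then above the 2 remaining wild-type arrays. The value of knockout 2 weighed most, since without Wildtype 1 and knockout 2 the difference was 0.28. On knockout 2, 10 of 11 stomach markers, 2 of 10 exocrine pancreas markers and 2 of 6 liver markers were over 2-fold above every other array. The summed linear signals of these lists were 51185, 19372 and 3896 on knockout 2. On the other 4 arrays without Wildtype 1, they were 344 to 1991 for stomach, 665 to 904 for pancreas and 252 to 1096 for liver, and the highest stomach sum of these was on Wildtype 3. The pancreas list had a median of 5.92 on knockout 2, against 5.36 to 5.67 on those 4 arrays. Its highest gene on knockout 2 was Pla2g1b (13.29), and that of the liver list was Apoa1 (11.62). Whether such tissues were present, and their part in the value of Ehhadh, was not tested.

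Pex11a, which acts in the division of peroxisomes, gave 6.90, 6.91 and 6.74 on the knockout arrays and 8.96, 6.63 and 6.51 on the wild-type arrays. Without Wildtype 1 the knockout arrays were all above the wild-type arrays, by 0.28 (SE 0.12, interval -0.0065 to 0.56, limma adjusted p = 0.997), and by 0.22 to 0.34 when a further array was left out. Hsd17b4, the other bifunctional enzyme, gave 9.03, 9.14 and 8.90 on the knockout arrays and 10.40, 8.93 and 8.83 on the wild-type arrays, a difference of 0.14 (SE 0.12) without Wildtype 1. These 3 genes had knockout means below wild type on 6 arrays and above it on 5.

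Without Wildtype 1, 4 members were above wild type on all 3 knockout arrays (Decr1, Etfb, Ehhadh and Pex11a, named after their values were seen), 12.9% of the 31, against 4.25% of all tested probe sets. The differences of Decr1 and Etfb were 0.09 and 0.05. Mdh2 was the 1 member lower on all 3, against 8.45% of all tested. On 6 arrays Mdh2 was again the 1 member with separate groups, lower in the knockout, against 4.39% of all tested, and 0 were higher, against 1.35%.

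The 7 citric acid cycle genes had the lowest median gap of the role groups. They were at a median of 2.99-fold the mean of the other 5 on Wildtype 1, and 6 of 7 were over 2-fold above every other array. Suclg1, a subunit of the succinyl-CoA ligase, gave 8.81, 9.08 and 9.08 on the knockout arrays and 11.47, 8.91 and 8.93 on the wild-type arrays, a ratio of 5.71 on Wildtype 1. Cs, the citrate synthase that opens the cycle, gave 10.64, 10.72 and 10.73 on the knockout arrays and 11.98, 10.63 and 10.77 on the wild-type arrays, a ratio of 2.44. Mdh2, the mitochondrial malate dehydrogenase that closes it, gave 11.33, 11.27 and 11.33 on the knockout arrays and 11.998, 11.34 and 11.45 on the wild-type arrays, a ratio of 1.57. Members of a single cycle thus spanned ratios of 1.57 to 5.71.

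Ogdh and Dlst encode successive subunits of the oxoglutarate dehydrogenase complex, and they reached 2.58-fold and 3.81-fold the mean of the other 5 on Wildtype 1. Idh3a, the catalytic subunit of the NAD-linked isocitrate dehydrogenase, was 3.11-fold above, and Fh1, fumarase, 2.99-fold. Ogdh was highest of the other 5 arrays on knockout 2 at 11.02, and Idh3a was lowest there at 10.08. For Mdh2 the difference was -0.29 (SE 0.19, interval -0.76 to 0.19) on 6 arrays and -0.09 (SE 0.09, interval -0.30 to 0.13) without Wildtype 1. For Cs the difference was -0.43 (SE 0.37) on 6 arrays and -0.0027 (SE 0.098, interval -0.24 to 0.23) without it.

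**Figure D2:**
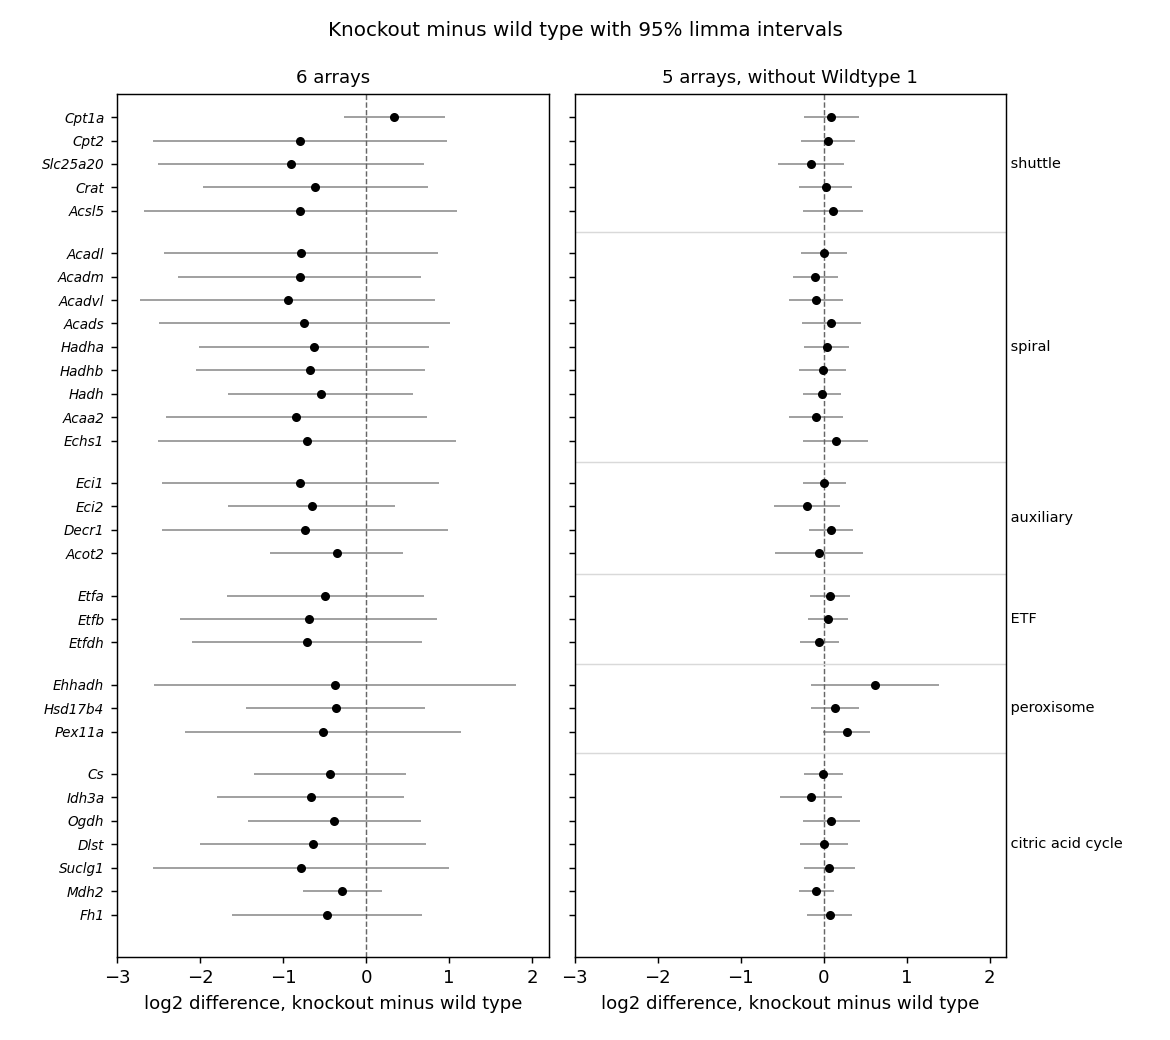
Log2 difference, knockout minus wild type (x axis), of the 31 genes with 95% limma intervals (bars), on 6 arrays (left) and on 5 arrays without Wildtype 1 (right). On 6 arrays the points lie left of 0 for 30 genes with a median margin to each side of 1.39, and on 5 arrays they lie near 0 with a median margin of 0.29.

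The 5-array comparison had the narrower intervals, after the array least like the rest was left out. Its wild-type group held 2 arrays, so these intervals reflect only the spread of the arrays kept. The median margin of the 95% limma interval, to each side, was 1.39 on 6 arrays and 0.29 on 5 arrays, which is 1.23-fold. Without Wildtype 1 the interval lay within -1 and 1, a 2-fold change either way, for 30 of the 31 genes, and within -0.5 and 0.5 for 24. Ehhadh was the exception at the wider limit. On 6 arrays the intervals of 2 genes lay within -1 and 1. An absolute difference over 0.5 without Wildtype 1 was seen for 1 of the 31 genes, Ehhadh, and for 2.17% of all tested probe sets.

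Among the 5 arrays other than Wildtype 1, 28 of the 31 genes had a range under 0.5 and 15 a range under 0.3. The exceptions were Ehhadh with 1.40, Acot2 with 0.69 and Eci2 with 0.51. Knockout 2 was the highest of the 5 for 12 genes (38.7%), against 21.8% of all tested probe sets. It was the lowest for 9 (29%), against 35.5% of all tested. Of the 31 genes, 1 stood over 0.5 above the other 4 on knockout 2, against 3.25% of all tested, and 0 stood over 0.5 below, against 1.66%. The highest value on knockout 2 was seen for Echs1 and Ogdh among others, and the lowest for Acaa2 and Idh3a among others. The members thus lay on both sides on that array, more often highest and less often lowest than all tested probe sets.

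**Figure D3:**
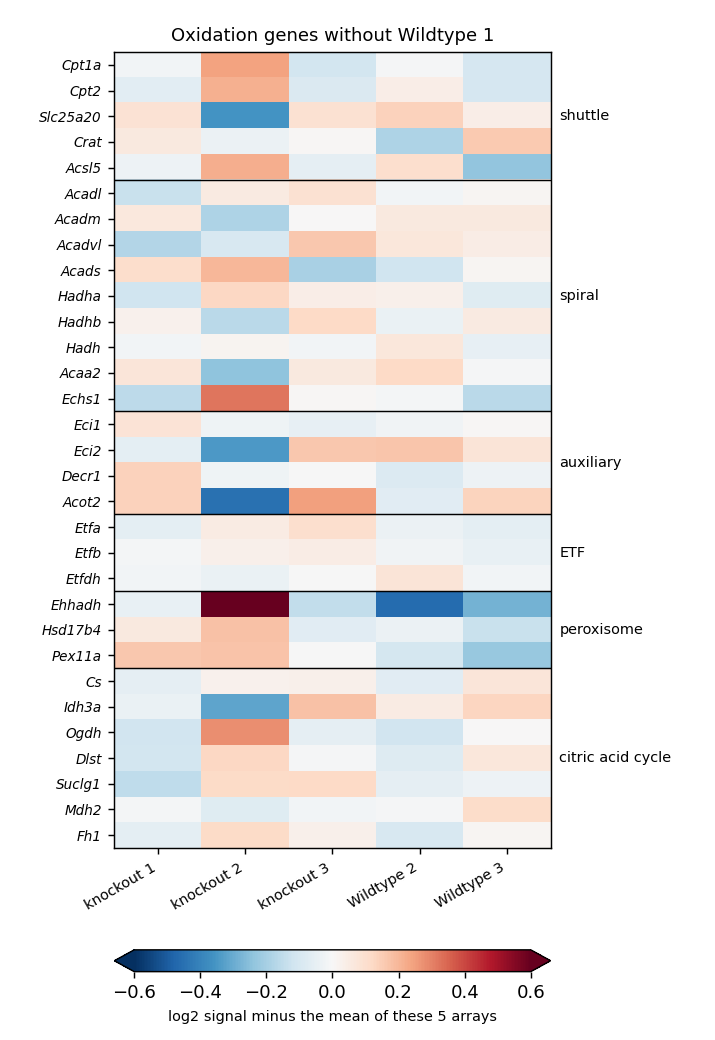
Log2 signal minus the mean of the 5 arrays other than Wildtype 1 (colour), for the 31 genes (rows, grouped by role) on knockout 1 to 3 and Wildtype 2 and 3 (columns). Colours are capped at 0.6 either way. Most cells are pale, and strong colours lie on knockout 2, with Ehhadh high (7.49) and Acot2 low (8.29), and on Wildtype 2, with Ehhadh low (6.09).

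Further genes of the same pathways, from lists that leave out the members, were also high on Wildtype 1, with exceptions. Among 26 further genes of beta oxidation and acyl-CoA handling, 14 were over 2-fold above every other array there and 1 over 2-fold below, with a median ratio of 2.71. For the peroxisome list of 35 further genes the counts were 15 above and 2 below with a median ratio of 1.86. Not every gene of that list is peroxisomal. Pmp22 encodes a peripheral myelin protein, and Acot1, 1 of the 2 below, encodes a cytosolic thioesterase. For 30 further genes of the cycle and of pyruvate entry the counts were 21 above and 0 below with a median ratio of 2.98. None of these genes passed between genotypes on 6 or on 5 arrays. Of the 35 genes of the peroxisome list, 31 passed the filter on low signals, and the rest, Acaa1b among them, were read from a fit without it. Knockout means were lower for 23 of 26, 32 of 35 and 27 of 30 on 6 arrays, with median differences of -0.43, -0.39 and -0.50. Without Wildtype 1 they were lower for 8 of 26, 22 of 35 and 13 of 30, with medians of 0.051, -0.028 and 0.033. An unadjusted limma p under 0.05 was reached by 1 gene of these lists on each set of arrays, the uncoupling protein gene Ucp3. It gave 6.83, 6.46 and 6.93 on the knockout arrays and 9.80, 7.46 and 7.89 on the wild-type arrays. Its difference was -1.64 (SE 0.62, interval -3.17 to -0.12, limma adjusted p = 0.911) on 6 arrays. Without Wildtype 1 it was -0.94 (SE 0.19, limma adjusted p = 0.997), and -0.79 without knockout 2 as well. All knockout arrays lay below all wild-type arrays on both sets, as for 4.39% and 8.45% of all tested probe sets.

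Of these further genes of the 3 pathways, the thioesterase gene Acot11 had the highest ratio on Wildtype 1, 13.7-fold the mean of the other 5, and 2 genes of fat synthesis were also high there. Acaca, the carboxylase whose product malonyl-CoA blocks carnitine palmitoyltransferase, gave 9.70, 9.76 and 8.95 on the knockout arrays and 12.59, 9.15 and 8.94 on the wild-type arrays. The citrate lyase gene Acly gave 9.40, 9.77 and 9.04 on the knockout arrays and 12.26, 9.27 and 9.18 on the wild-type arrays. Bdh1, a dehydrogenase of ketone bodies, was lowest on Wildtype 1 at 5.28, against 7.28 to 7.76 on the others, and Acox2, an oxidase of bile acid intermediates and branched chains, was lowest there at 6.11, against 7.77 to 8.55. High signals of oxidation and of fat synthesis thus lay on the same array.

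On 6 arrays the differences were -1.64 for Ucp3, -1.11 for the thioesterase gene Acot11, -0.84 for Acly, and -0.81 for Scp2 and for the pyruvate carrier gene Mpc1. They were -0.80 for Pdhb of pyruvate dehydrogenase, -0.76 for Acaca, -0.75 for Pecr, 0.89 for Bdh1 and 0.53 for Acox2 and Me2. Without Wildtype 1 the differences of genes named by the same rule, the 3 largest of each list on either set of arrays, included 0.65 for Pcx, pyruvate carboxylase, 0.59 for Phyh and for Me2, 0.43 for Acaca, 0.36 for Oxct1, 0.31 for Pdp2, 0.19 for Acaa1b, -0.21 for Acox2 and -0.24 for Pex10. Without knockout 2 as well, Phyh and Me2 were at -0.024 and -0.0799, so their values rested on that array. Pcx gave 8.84, 9.02 and 7.98 on the knockout arrays and 11.27, 8.03 and 7.89 on the wild-type arrays, and without knockout 2 as well its difference was 0.45. White fat and lipid storage markers had medians of 8.61, 8.33 and 7.46 on knockout 1, 2 and 3, against 6.90 and 7.56 on Wildtype 2 and 3. Their part in the values of Pcx and Acaca was not tested.

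Regulators of oxidation were measured through 20 genes, of which 19 passed the filter on low signals, and Esrrb was read from a fit without it. On Wildtype 1, 4 were over 2-fold above every other array (Ppara, Pparg, Ppargc1b and Sirt3, named after their values were seen), with a median ratio of 1.39 over the list. Ppara, the receptor that drives many oxidation genes in liver and heart, gave 6.64, 6.71 and 6.93 on the knockout arrays and 8.98, 6.83 and 6.67 on the wild-type arrays. Pparg, the receptor of fat cell differentiation, gave 7.76, 8.32 and 6.71 on the knockout arrays and 11.13, 6.71 and 6.78 on the wild-type arrays. Without Wildtype 1 the difference was 0.0086 (SE 0.13) for Ppara and 0.85 (SE 0.42) for Pparg, which was high on knockout 1 and 2, the knockout arrays of higher white fat markers. Esrrg, an estrogen-related receptor, was at 9.17 on knockout 2, against 7.02 to 7.37 on the others, and its difference without Wildtype 1 was 0.72, or 0.030 without knockout 2 as well. Nrf1 differed by -0.19 on 6 arrays and -0.25 on 5. None passed, and the median difference of the 20 was -0.22 on 6 arrays and 0.011 without Wildtype 1.

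Markers of several cell types moved on Wildtype 1 together with the oxidation genes, some up and some down. Of 14 brown fat markers, 10 were over 2-fold above every other array there. Their summed linear signal was 23569 on Wildtype 1, against 2920 to 4023 on the others. Ucp1, the uncoupling protein that defines brown fat, named after its values were seen, gave 12.32 there, against 4.32 to 4.59. Of 14 white fat and lipid storage markers, 11 were over 2-fold above, with sums of 42492 on Wildtype 1 and 8155 to 11541 on the others. Their medians were 11.15 on Wildtype 1 and 6.90 to 8.61 on the others. Car3 was the highest of them on every array, at 12.96 on Wildtype 1 and 12.19 to 12.51 on the others, so the sums lean on that gene. Skeletal muscle markers went the other way, and 19 of 20 lay more than 2-fold under each of the other 5 arrays, with sums of 2265 on Wildtype 1 and 45107 to 65630 on the others. Stratified squamous epithelium markers were over 2-fold below on 14 of 14, with sums of 599 on Wildtype 1 and 42120 to 48358 on the others. Cardiac muscle markers were over 2-fold above on 5 of 9, with a median of 9.54 on Wildtype 1 and 6.36 to 6.92 on the others, while their sum of 6849 there lay within the 6224 to 8453 of the others. Endothelial markers were over 2-fold above on 5 of 11, with sums of 5809 on Wildtype 1 and 1887 to 2916 on the others. Oxidation genes are active in fat, heart and skeletal muscle, and the part of any of these cell types in the values above was not tested. Across the remaining 5 arrays the sum of the brown fat list was 4023 on Wildtype 3, 4016 on knockout 3 and lowest on knockout 2. The array medians of its markers lay between 6.21 and 6.36. Ucp1 was at 4.32 to 4.59 on these arrays, and the marker of highest signal on Wildtype 3 was Cox8b (10.60). The skeletal muscle sum was likewise highest on Wildtype 3 and lowest on knockout 2. Which cells the brown fat sum reflects on these arrays was not tested.

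**Figure D4:**
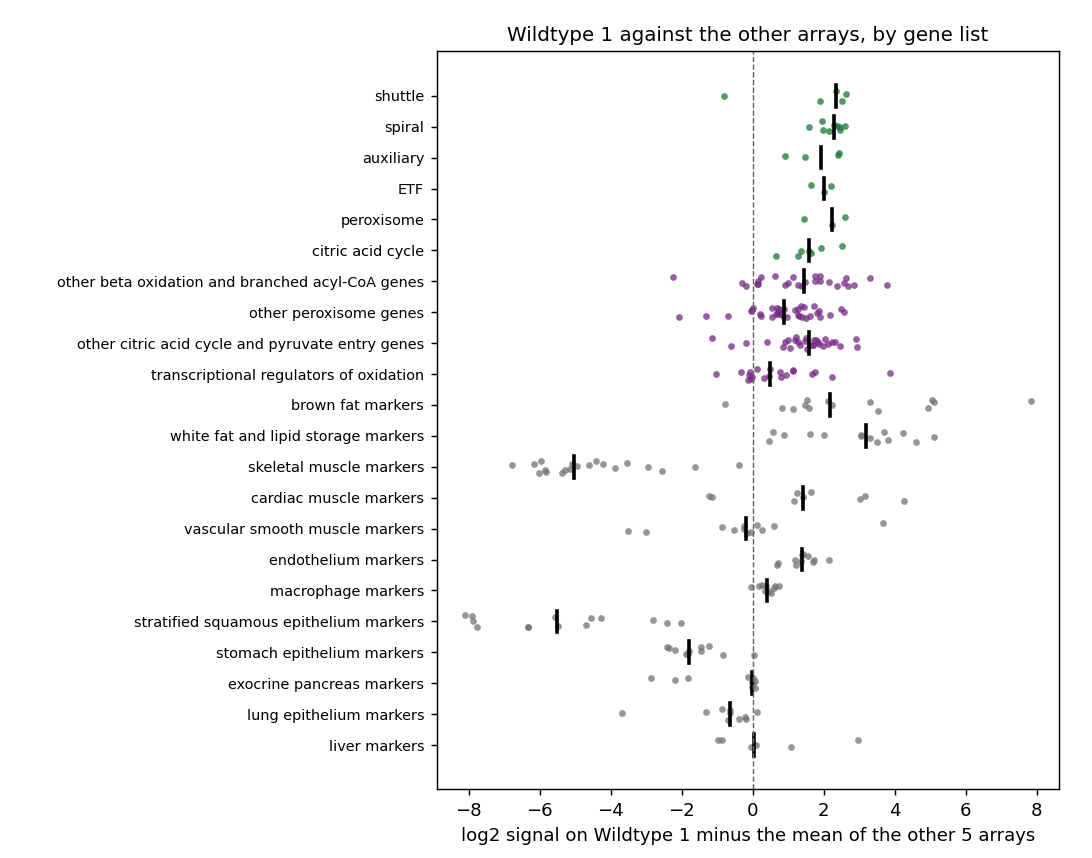
Log2 signal on Wildtype 1 minus the mean of the other 5 arrays (x axis), 1 point per gene, for the oxidation genes by role (green), further genes of the pathways and their regulators (purple) and marker lists (grey), with black bars at list medians. The oxidation genes lie between -0.80 and 2.64, fat markers reach further right, and skeletal muscle and squamous epithelium markers lie on the left.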

How the data were processed

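The 6 samples, labelled as aorta, were hybridised to one-colour arrays, 1 array each. The labels' protocols give a Trizol extraction and a biotin-labelled cRNA made from 6 ug of RNA. The deposited table holds log2 values for 35399 probe sets, ranging from 1.55 to 13.96. The log base was read from that range. MAS5 is listed, per the submitters' processing notes, without its role or version, and how the authors scaled the arrays is not stated. Values were used as deposited, with no detection calls and no known depth beyond the number of arrays. Dim genes would be the most affected by how signals were summarised.

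The platform annotation gives 1 symbol to 21789 probe sets and several to 1621, and 11989 are unnamed here. Probe sets in the lowest 40% by mean over 6 arrays were left out of the test, which left 13073. The genotypes were compared two-sided with limma 3.58.1 under R 4.3.3 at an adjusted p of 0.05, and the fit was tested on simulated data. Differences are knockout minus wild type. The members and lists were chosen with earlier results of these data known, so lists are described by counts and medians. Named were all members, from each further list the 3 largest differences on 6 arrays and the 3 largest without Wildtype 1, and, for arrays, marker genes. Replicate numbers do not pair the samples. Deviations of same-numbered arrays correlated at 0.092, -0.24 and 0.21. Alternatives were quantile and median scaling, pseudocounts of 1 and 64, other filters, other forms of moderation, array weights, a replicate block, other probe sets, all probe sets, and leaving out arrays. Protein sequences planned for display were not used here.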

Additional observations from a re-analysis of the deposited data

How the results depend on the processing

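No probe set and none of the 31 oxidation genes passed in any run, while the number of probe sets with an unadjusted p under 0.05 lay between 28 and 1033 (without Wildtype 1 and knockout 3). The count of 28 members over 2-fold above every other array on Wildtype 1 was the same under both scalings and both pseudocounts. It was also the same under both filters and the other probe set choices, which could hardly change it. A filter does not alter the signals, and only 1 member had a second probe set. Small numbers of arrays limit every value. The median difference of the members, -0.67, was -0.63 to -0.70 under quantile and median scaling, -0.024 with array weights, and from -1.02 to 0.060 when arrays were left out, with 0.026 without Wildtype 1 alone. Leaving out Wildtype 2 or 3 gives Wildtype 1 more weight in its group. With the replicate block it was -0.67, 0 genes passed, 68 probe sets had an unadjusted p under 0.05, and the block changed no call. Where 1 wild-type array was left, it was assumed to vary like the other group. Without Wildtype 1, 18 of the 31 members turned sign, and 25 did so in at least 1 run. When arrays were left out, the members' differences ran as follows: Cpt2 -1.25 to 0.12, Acsl5 -1.33 to 0.28, Acads -1.19 to 0.21, Echs1 -1.17 to 0.25, Decr1 -1.16 to 0.12, Etfa -0.78 to 0.12, Etfb -1.07 to 0.070, Ehhadh -0.92 to 0.82, Hsd17b4 -0.64 to 0.20, Pex11a -0.95 to 0.34, Crat -1.02 to 0.20, Acadl -1.19 to 0.075, Hadha -0.98 to 0.10, Eci1 -1.20 to 0.035, Ogdh -0.65 to 0.17, Dlst -0.997 to 0.077, Suclg1 -1.21 to 0.16, Fh1 -0.77 to 0.13, Cs -0.68 to 0.069, Cpt1a -0.011 to 0.49, Slc25a20 -1.30 to 0.00101, Hadhb -1.02 to 0.066, Acaa2 -1.24 to 0.011, Acot2 -0.55 to 0.16 and Hadh -0.84 to 0.042. For other named genes they were Acot11 -1.79 to 0.35, Acaca -1.40 to 0.69, Phyh -0.77 to 0.94, Acly -1.36 to 0.36, Pcx -1.04 to 0.97, Pdp2 -1.06 to 0.41, Ppara -1.15 to 0.092, Pparg -1.36 to 1.29, Oxct1 -0.17 to 0.50, Me2 -0.13 to 0.96, Esrrg -0.066 to 1.08, Scp2 -1.25 to 0.18, Acaa1b -1.13 to 0.22, Acox2 -0.44 to 1.013, Pecr -1.12 to 0.074 and Mpc1 -1.24 to 0.066. With array weights the sign turned for Cpt2 at 0.035, Acsl5 at 0.16, Acads at 0.029, Echs1 at 0.084, Decr1 at 0.078, Etfa at 0.035, Etfb at 0.024, Ehhadh at 0.40, Hsd17b4 at 0.15, Pex11a at 0.30, Acot11 at 0.12, Acaca at 0.51, Phyh at 0.25, Acly at 0.15, Pcx at 0.71, Pdp2 at 0.30, Acaa1b at 0.11, Ppara at 0.0021 and Pparg at 0.78. The cause of these turns was not tested beyond leaving out the arrays.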
